A study of Mus musculus with 3 samples.

Results

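Cytochrome P450 genes were followed in RNA from the bone marrow of vehicle-treated mice. Members were taken by symbol, as every entry whose name starts with Cyp and a digit, which gave 105 of 23282 entries. In the GENCODE annotation of GRCm38, 104 of the 105 were found, of which 99 were protein-coding genes, 4 were pseudogenes and 1, Cyp4x1os, was an antisense RNA. Cyp2c44 was found there as Cyp2c23, and Cyp2d13 was not matched. The animals were male wild type C57BL/6 mice, an inbred laboratory strain, aged 6 weeks, and their group is called vehicle here. They were gavaged with sterile water over 28 days, and day 29 was the day of marrow collection, followed by lysis of red blood cells. The study sets this vehicle against Asari Radix et Rhizoma, a herbal drug made from wild ginger root, but herb-treated samples were not analysed here and no value below compares treatments. Nothing in the labels says that the 3 libraries came from different mice, so their spread may be technical.

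P450 enzymes are haem proteins that insert an oxygen atom into their substrates. Those of the endoplasmic reticulum draw electrons from the reductase Por, and those of mitochondria from ferredoxin and its reductase. The liver is the best known site of the drug-metabolising subfamilies, while other members act on cholesterol, bile acids, steroid hormones, vitamin D, retinoic acid and fatty acids in many tissues. In mouse neutrophils, Cyp4f18 is known for the omega-hydroxylation of leukotriene B4, a chemoattractant lipid.

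Replicates 1, 2 and 3 held 9168435, 8104828 and 9137125 reads assigned to genes, and levels are given in reads per 1000000 of these (CPM). A count of 0 was taken to allow up to 3 reads, the exact one-sided 95% Poisson limit rounded up, which is 0.327, 0.370 and 0.328 CPM in replicates 1, 2 and 3, and 0.114 CPM over all 26410388 reads together. Intervals and limits cover counting error only, since no molecular identifiers are named. All 8 neutrophil markers and all 5 erythroid markers had reads. Of 10 hepatocyte markers, 9 (Alb, Apoa1, Apoa2, Apoh, Ahsg, Fgb, Serpina1a, Tat and Ttr) had 0 reads, and the remaining one was Hp, which neutrophils also make, at 450, 322 and 443 CPM.

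Few P450 genes were expressed in marrow. With reads in every library and a mean of at least 1 CPM as the rule, 11 of 105 members (10.5%) were expressed, against 51.4% of all entries in the files. Another 21 members had reads below that level, and 73 members (69.5%) had 0 reads in all 3 libraries, against 31.1% of all entries. All members together held 1099, 954 and 1257 reads in replicates 1, 2 and 3, or 120, 118 and 138 CPM, a mean of 125 ± 10.9 CPM (SD, n = 3). The exact 95% Clopper-Pearson interval of replicate 3, 130 to 145 CPM, lay above those of replicate 1 (113 to 127 CPM) and replicate 2 (110 to 125 CPM). The 3 highest members, Cyp4f18, Cyp51 and Cyp27a1, held 75.1% of these reads.

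**Figure D1:**
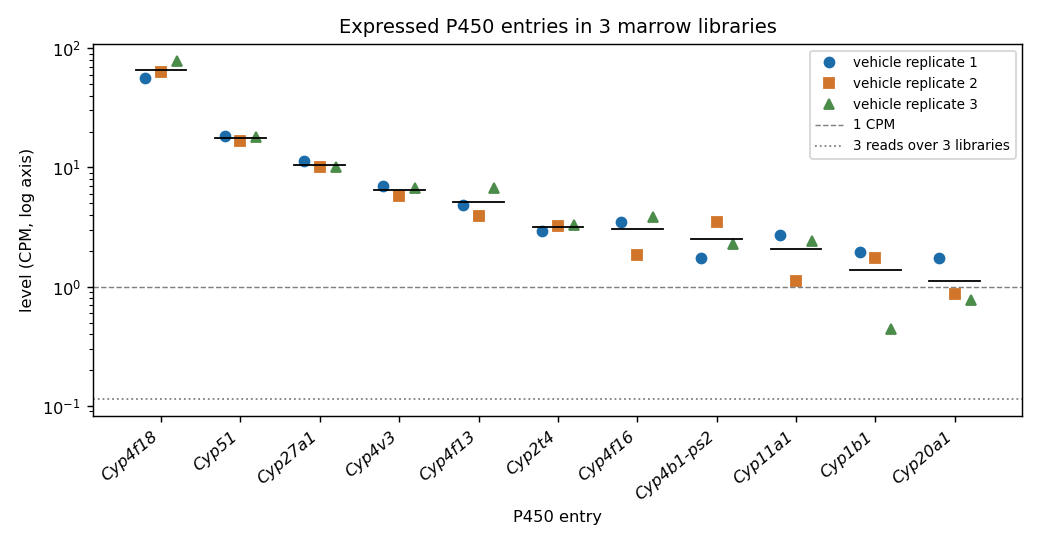
Levels of the 11 expressed P450 entries in CPM on a log axis, with 1 point per vehicle library and a bar at the mean of 3. Cyp4f18 stands apart at 56.2 to 78.1 CPM, and Cyp1b1 and Cyp20a1 have libraries below the dashed line at 1 CPM. The dotted line is the limit of a count of 0 over the 3 libraries, 0.114 CPM.

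Levels could be set side by side without a length correction because the library kit reads about 1 fragment per transcript from its polyadenylated end. In the order of means, the 11 expressed members were Cyp4f18, Cyp51, Cyp27a1, Cyp4v3, Cyp4f13, Cyp2t4, Cyp4f16, Cyp4b1-ps2, Cyp11a1, Cyp1b1 and Cyp20a1. Of the 10 pairs of neighbours in this order, 4 had ranges over the libraries that did not overlap. These were the steps from Cyp4f18 to Cyp51, to Cyp27a1 and to Cyp4v3, and the step from Cyp4f13 to Cyp2t4. In the other 6 pairs the ranges overlapped, so neighbours from Cyp2t4 downwards did not differ beyond their spread.

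Fatty acid and eicosanoid members carried most of the P450 reads. Of their 30 entries, 5 were expressed, 9 had reads below that level and 16 had 0 reads, and together they stood at 85.8 ± 12.4 CPM (SD, n = 3), 68.6% of all member reads. Cyp4f18 (GRCm38 chromosome 8, 71988482 to 72009626, minus strand) was counted at 515, 513 and 714 reads, or 56.2, 63.3 and 78.1 CPM, in replicates 1, 2 and 3. It was highest in replicate 3, 1.39-fold above replicate 1 (adjusted p = 7.82e-07, exact binomial test of each library against the others with Benjamini-Hochberg adjustment over 11833 entries), which tests the spread against counting noise only. Without replicate 3 the difference between the remaining libraries was not called (adjusted p = 0.120, exact binomial test). Cyp4f18 made up 46.9%, 53.8% and 56.8% of member reads, and the other members summed to 63.7, 54.4 and 59.4 CPM. The 8 neutrophil markers held 8.79%, 6.82% and 9.03% of all reads in replicates 1, 2 and 3. They were lowest in replicate 2, where Cyp4f18 was not lowest, and their part in its level was not tested.

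The genes that make and sense leukotriene B4 had higher levels than Cyp4f18 in every library. Alox5ap, whose product presents arachidonic acid to 5-lipoxygenase, had 459, 353 and 391 CPM, and the lipoxygenase gene Alox5 had 101, 76.3 and 86.2 CPM. Lta4h, encoding the hydrolase that completes leukotriene B4, had 157, 166 and 124 CPM, and the receptor gene Ltb4r1 had 209, 182 and 156 CPM. Replicate 3, the highest library for Cyp4f18, was the lowest for Lta4h and Ltb4r1. The epoxide hydrolase genes Ephx1 and Ephx2, which open lipid and drug epoxides, were low at 6.34 ± 2.52 and 1.40 ± 0.113 CPM (SD, n = 3). Of these 6 neighbours of the pathway, 5 differed between libraries, against 56.5% of all entries tested. Without replicate 1 Ephx1 and Alox5 were not called (adjusted p = 0.207 and 0.0632, exact binomial test), and without replicate 3 Lta4h was not (0.292). A P450 gene that the symbol rule leaves out, the thromboxane synthase gene Tbxas1, stood at 15.5, 12.3 and 16.2 CPM, with a mean between those of Cyp51 and Cyp27a1. The prostacyclin synthase gene Ptgis, also a P450 under another name, had 0 reads.

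Other Cyp4 members were expressed at lower levels. Cyp4v3, a fatty acid omega-hydroxylase gene on chromosome 8 (45304944 to 45333216), had 6.98, 5.80 and 6.68 CPM. Cyp4f13 and Cyp4f16 lie with 7 more Cyp4f entries on chromosome 17 between 32452723 and 32965718. Within this stretch Cyp4f13 (32924688 to 32947402) had 44, 32 and 61 reads and Cyp4f16 (32536558 to 32551798) had 32, 15 and 35 reads. Both were lowest in replicate 2. Neither passed the test on library totals (adjusted p = 0.0917 for Cyp4f13 and 0.0787 for Cyp4f16, exact binomial test). Cyp4f13 was called with trimmed-mean (TMM) scaling (0.0306), with the authors' scaling (0.0382) and without replicate 1 (0.0481), and Cyp4f16 without replicate 1 (0.0471, exact binomial test). Of the other entries of the stretch, Cyp4f37 had 7, 1 and 4 reads, Cyp4f39 1, 2 and 0, Cyp4f17 2 reads in all and Cyp4f41-ps 1. Cyp4f14, Cyp4f15 and Cyp4f40 had 0 reads, so 6 of 9 neighbouring paralogs had reads and 3 had none.

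Cyp4b1-ps2 is annotated as an unprocessed pseudogene (chromosome 4, 115582286 to 115583144), yet it had more reads than its coding relative Cyp4b1. It had 16, 28 and 21 reads in replicates 1, 2 and 3, against 6, 5 and 8 for Cyp4b1, and was the higher of the pair in each library. Sequence sharing limits this comparison. Of the runs of 50 bases in the last 300 bases of its transcript, 61.4% occurred in no other gene's transcripts, and the rest occurred in Cyp4b1. The Cyp2j entries, arachidonic acid epoxygenases for the most part, stayed below the expressed level. Cyp2j6 had 13, 0 and 5 reads, Cyp2j9 6, 10 and 1, and Cyp2j12 a single read, while Cyp2j5, Cyp2j8, Cyp2j11 and Cyp2j13 had 0. Of the 8 Cyp4a entries, fatty acid hydroxylases under control of Ppara in liver, 7 had 0 reads and Cyp4a31 had 1, and Ppara itself had 1 read.

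**Figure D2:**
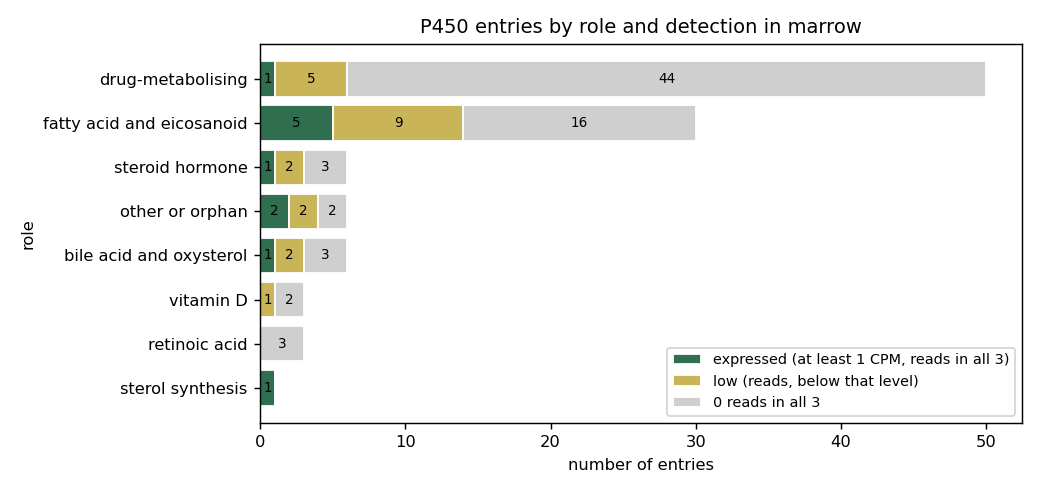
Number of P450 entries per role, split into expressed (at least 1 CPM with reads in all 3 libraries), low (reads below that level) and 0 reads. The drug-metabolising bar is the longest, with 44 of 50 entries at 0, and fatty acid and eicosanoid members hold 5 of the 11 expressed entries.

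Sterol and bile acid members were represented by 2 expressed genes. Cyp51, the lanosterol demethylase of cholesterol synthesis (chromosome 5, 4081145 to 4104746), stood at 18.3, 16.7 and 17.8 CPM, nearly level across libraries (adjusted p = 1, exact binomial test). Its regulator gene Srebf2 had 34.8, 30.4 and 30.8 CPM. The end of Cyp51 lies over the end of Akap9, a gene of the opposite strand at 230 CPM, and 55.3% of the last 300 exonic bases of Cyp51 fall within exons of Akap9. Because the strand setting of the counting is not given in the sources used here, reads of Cyp51 and Akap9 cannot be told apart in that overlap. Cyp27a1, the mitochondrial sterol 27-hydroxylase (chromosome 1, 74713574 to 74737892), had 11.3, 9.99 and 10.1 CPM (adjusted p = 1, exact binomial test). The oxysterol hydroxylase Cyp39a1 lay just under the expressed level, with 9, 4 and 12 reads and a mean of 0.929 CPM, and Cyp20a1 lay just over it at 1.12 CPM. Cyp46a1, the cholesterol 24-hydroxylase, had 5 reads, all in replicate 1. Cyp7a1, the rate-limiting enzyme of bile acid synthesis, had 0 reads, as had Cyp7b1 and Cyp8b1. The oxysterol receptor genes Nr1h2 and Nr1h3 had 34.7 ± 4.13 and 3.29 ± 0.955 CPM (SD, n = 3), whereas the bile acid receptor gene Nr1h4 had 0 reads and Nr0b2, the repressor it induces in liver, had 6.

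Of the 6 steroid hormone members, only Cyp11a1 reached the expressed level. This side-chain cleavage enzyme, which turns cholesterol into pregnenolone in mitochondria, is encoded on chromosome 9 (58006411 to 58027023). It had 25, 9 and 22 reads in replicates 1, 2 and 3, or 2.73, 1.11 and 2.41 CPM, lowest in replicate 2 (adjusted p = 0.0930, exact binomial test). Cyp17a1 had 4, 3 and 0 reads, Cyp19a1 (aromatase) had 1 read, and Cyp11b1, Cyp11b2 and Cyp21a1 had 0. Star, whose product carries cholesterol to Cyp11a1, had 14, 43 and 27 reads, with its highest level where Cyp11a1 had its lowest. The other steroid-gland markers Hsd3b1, Insl3 and Nr5a1 had 0 reads. All 5 basophil and mast cell markers had reads, with summed levels of 166, 109 and 145 CPM, and all 5 T and NK cell markers, with 66.4, 52.1 and 72.0 CPM. Both sums were lowest in replicate 2, but single markers were not uniform. Nkg7 alone of the T and NK cell markers was lowest there, and the basophil and mast cell markers Fcer1a and Ms4a2 were highest there. The neutrophil markers were also lowest in replicate 2, both each by itself and summed (8.79%, 6.82% and 9.03% of reads). The part of any of these cells in the level of Cyp11a1 was not tested.

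The members listed under retinoic acid and vitamin D were at or near 0. Cyp26a1, Cyp26b1 and Cyp26c1, which degrade retinoic acid, had 0 reads each, although the retinoic acid receptor genes Rara and Rarg had 23.3 ± 1.95 and 20.5 ± 2.41 CPM (SD, n = 3). For vitamin D, the activating enzyme Cyp27b1 and the degrading enzyme Cyp24a1 had 0 reads, and the 25-hydroxylase Cyp2r1 had 0, 4 and 1 reads. The vitamin D receptor gene Vdr had 28 reads, or 1.08 ± 0.593 CPM (SD, n = 3). Cyp2t4 and Cyp20a1 were the expressed members without an assigned role. Cyp2t4 (chromosome 7, 27153714 to 27158668) had 2.94, 3.21 and 3.28 CPM, and Cyp20a1 (chromosome 1, 60343323 to 60388060) had 16, 7 and 7 reads. The exons of Cyp2t4 meet those of the opposite-strand gene Egln2 in 2.72% of its end region. Cyp2ab1 had 4, 4 and 6 reads, and Cyp2s1 and Cyp2w1 had 0.

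The drug-metabolising members had few or no reads at this depth. Of 50 entries in the subfamilies Cyp1a, Cyp1b, Cyp2a to Cyp2g and Cyp3a, 44 (88.0%) had 0 reads in every library, 5 had a few reads and 1, Cyp1b1, was expressed. Together they held 33, 26 and 9 reads, or 3.60, 3.21 and 0.985 CPM, and were 2.05% of member reads. The carcinogen-activating enzymes Cyp1a1 and Cyp1a2 had 0 reads. So did Cyp2a4, Cyp2a5, Cyp2a12 and Cyp2a22, Cyp2b9, Cyp2b13, Cyp2b19 and Cyp2b23, and Cyp2g1. All 16 Cyp2c entries had 0 reads, namely Cyp2c29, Cyp2c37, Cyp2c38, Cyp2c39, Cyp2c40, Cyp2c44, Cyp2c50, Cyp2c53-ps, Cyp2c54, Cyp2c55, Cyp2c65, Cyp2c66, Cyp2c67, Cyp2c68, Cyp2c69 and Cyp2c70. Of the 10 Cyp2d entries 9 had 0 reads, namely Cyp2d9, Cyp2d10, Cyp2d11, Cyp2d12, Cyp2d13, Cyp2d26, Cyp2d34, Cyp2d37-ps and Cyp2d40. Of the 9 Cyp3a entries 8 had 0 reads, among them Cyp3a11, the main hepatic form, with Cyp3a16, Cyp3a25, Cyp3a41a, Cyp3a41b, Cyp3a44, Cyp3a57 and Cyp3a59.

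For each of these 44 entries the count of 0 allows a level of up to 0.327, 0.370 and 0.328 CPM in replicates 1, 2 and 3, and of up to 0.114 CPM over the libraries together. The same 3 reads bound the sum of all 44, since none had a read. With 3 reads over the group as the limit of a 0, the counted reads of Cyp4f18 were 581-fold above that limit. Those of Cyp51 were 155-fold and those of Cyp27a1 92.3-fold above it. These folds leave out the counting error of the higher genes. The fold of Cyp51 also takes all of its reads as its own, although its end overlaps Akap9. The limit holds only for an entry whose reads could be assigned to it. Among 43 of the 44 with a GENCODE transcript, 17 shared no run of 50 bases in their last 300 bases with another gene's transcripts, and 26 shared some. The share of such runs found in no other gene had a median of 94.0%. It was 0% for Cyp3a41a and Cyp3a41b, which match each other and a pseudogene, and 46.2% for Cyp2c40, so the limits of these 3 depend most on how reads with several matches were treated. That treatment is not given in the sources used here.

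Among drug-metabolising members with reads, Cyp1b1 led with 18, 14 and 4 reads in replicates 1, 2 and 3, or 1.96, 1.73 and 0.438 CPM. Cyp1b1 (chromosome 17, 79701537 to 79715061) metabolises polycyclic hydrocarbons and oestradiol. Its level was lowest in replicate 3 (adjusted p = 0.0155, exact binomial test of each library against the others), 4.48-fold below replicate 1. That pair was not tested by itself. Without replicate 3 it was not called (adjusted p = 0.917, exact binomial test), and without replicate 1 or 2 it fell under the minimum of 30 reads. All 8 stroma, fat and endothelium markers had reads. Their summed level was likewise lowest in replicate 3, at 328, 291 and 235 CPM, but single markers were not uniform. Pecam1 was highest in replicate 3 (28.2, 25.5 and 32.3 CPM) and Adipoq was lowest in replicate 1 (16.7, 24.4 and 19.7 CPM). The other markers of the list were lowest in replicate 3. Replicate 3 was also lowest for the summed macrophage (597, 582 and 562 CPM), B cell (598, 608 and 495 CPM) and megakaryocyte markers (372, 307 and 267 CPM). The part of any of these cells in the level of Cyp1b1 was not tested. Cyp3a13 had 8, 1 and 1 reads, and Cyp2e1, the ethanol-inducible form, had 1, 3 and 4. Cyp2d22 had 1, 3 and 0 reads. The 5 reads of Cyp2b10 were all in replicate 2 and the 5 of Cyp2f2 all in replicate 1, so neither was seen in more than 1 library. Exact two-sided 95% Poisson intervals, which unlike the limit of a 0 leave room on both sides, were, over all libraries, 0.182 to 0.696 CPM for Cyp3a13, 0.131 to 0.597 CPM for Cyp2e1, 0.0615 to 0.442 CPM for Cyp2b10 and Cyp2f2, and 0.0413 to 0.388 CPM for Cyp2d22.

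**Figure D3:**
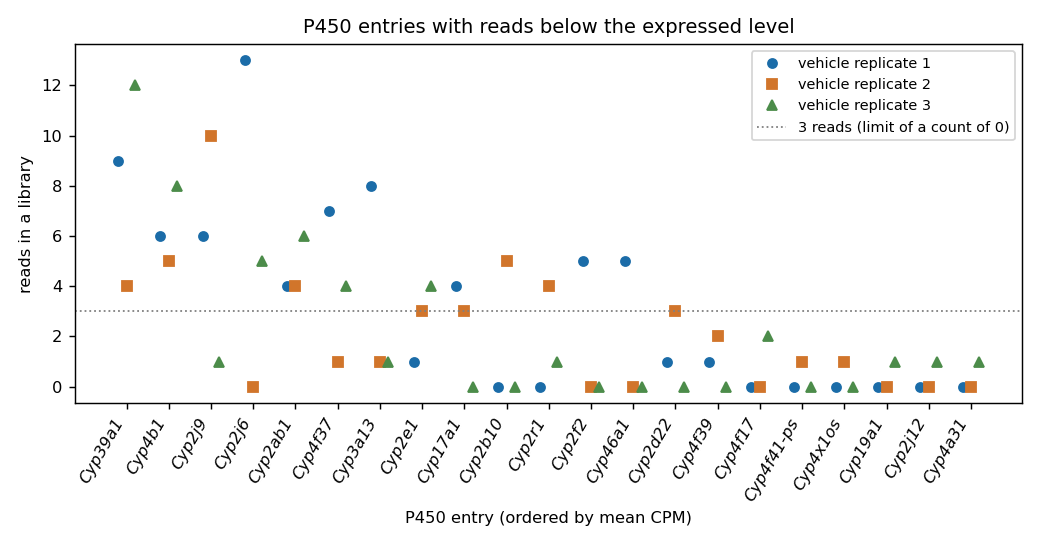
Reads per library for the 21 P450 entries that had reads but stayed below the expressed level, with 1 point per vehicle library. The dotted line marks 3 reads, the limit of a count of 0. Cyp39a1 reaches 12 reads and Cyp2j6 ranges from 0 to 13, while Cyp2b10, Cyp2f2 and Cyp46a1 have all 5 of their reads in 1 library.

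The receptors that induce drug-metabolising P450 genes in liver ranged from well detected to 0 reads. Ahr, the aryl hydrocarbon receptor that drives Cyp1 genes, had 8.51, 2.84 and 3.94 CPM in replicates 1, 2 and 3. It was highest in replicate 1 (adjusted p = 2.56e-06, exact binomial test), and without replicate 1 it was not called (0.384). Its partner Arnt had 14.8, 16.2 and 13.0 CPM, and Tiparp, a gene that Ahr induces, had 99.1, 92.9 and 71.1 CPM, while Cyp1a1 and Cyp1a2 were at 0. The repressor Ahrr had 7 reads, all in replicate 3. Nr1i2, the pregnane receptor of Cyp3a genes, had 0 reads, Nr1i3, the constitutive androstane receptor of Cyp2b genes, had 2, and the liver factor Hnf4a had 6. Their shared partners Rxra and Rxrb had 9.16, 12.3 and 8.65 CPM and 33.2, 28.4 and 28.3 CPM. Of the 22 regulators listed, 14 were expressed, against 51.4% of all entries in the files. Another 3 (Nr1i2, Nr1h4 and Nr5a1) had 0 reads, against 31.1% of all entries.

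Redox partners were expressed throughout, in contrast to most of the enzymes they serve. All 11 had reads in every library and a mean of at least 1 CPM, against 51.4% of all entries. Their means ran from 8.22 ± 1.93 CPM for the ferredoxin gene Fdx1 to 67.5 ± 4.54 CPM for the reductase gene Cyb5r4 (SD, n = 3). Por, the reductase of microsomal P450 enzymes, had 57.0, 56.9 and 48.6 CPM, and Cyb5a, encoding cytochrome b5, had 51.4, 59.8 and 66.3 CPM. The ferredoxin reductase gene Fdxr, which serves the mitochondrial enzymes Cyp27a1 and Cyp11a1, had 12.5, 9.38 and 8.65 CPM. The haem synthesis gene Alas1, the form used outside red cells, had 41.8, 33.2 and 35.9 CPM, against 341, 463 and 477 CPM for the erythroid form Alas2. All 5 erythroid markers had reads, and their sum was 6.62%, 9.84% and 9.95% of reads, lowest in replicate 1, as was Alas2, which is one of them.

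**Figure D4:**
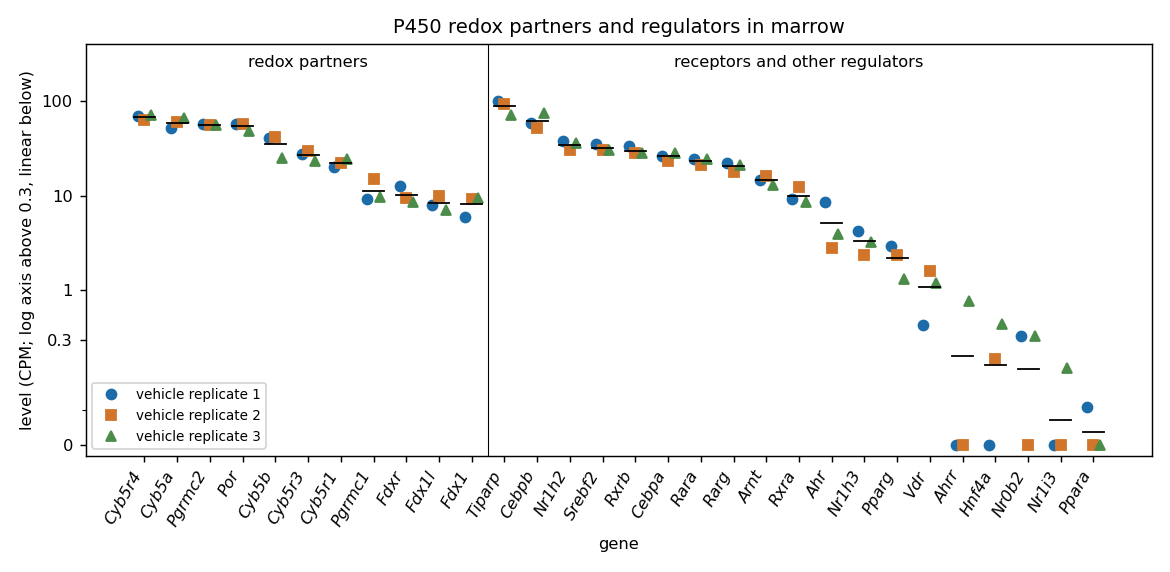
Levels in CPM of the redox partners (left) and of the receptors and other regulators with reads (right), with 1 point per vehicle library and a bar at the mean of 3. The axis is logarithmic above 0.3 CPM and linear below. All 11 redox partners lie above 1 CPM, while Ahrr, Hnf4a, Nr0b2, Nr1i3 and Ppara have means below 0.3 CPM.

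Few members differed between libraries beyond counting noise. Of the 11 members with at least 30 reads, 2 passed the test, Cyp4f18 and Cyp1b1, against 56.5% of all 11833 entries tested and 50.8% of the 9740 entries in the same range of reads. Members had fewer reads to test with, a median of 83 against 444 over all entries tested, and a p that misses the threshold does not show equal levels. Their median coefficient of variation (CV) was 27.1%, against 17.1% over all entries tested and 19.4% over those in the same range of reads. That range runs from 30 to 1742 reads and was not matched to the members on depth. Neither the calls nor the CVs are therefore compared at equal depth. Leaving out replicate 1, 2 or 3 gave a median CV of 14.8%, 8.42% or 11.1%, over fewer libraries and fewer members. Cyp20a1, and without replicate 1 or 2 also Cyp1b1, fell under the minimum of 30 reads. These medians are therefore not comparable with those above. Cyp51, Cyp27a1, Cyp4v3 and Cyp2t4 had CVs of 4.87%, 7.24%, 9.46% and 5.65%. With TMM scaling 3 members passed, Cyp4f13 being the added one, against 52% of all entries. Without replicate 3 no member passed. Of the 38 tested redox partners, haem genes, regulators, eicosanoid neighbours and Tbxas1, 20 differed between libraries, against the 56.5% of all entries. Without replicate 1, 2 or 3, 10, 17 or 12 did. The share of all entries called was not computed for fits that leave out a library. Scaling matters for replicate 1, whose median gene was 0.14 higher in log2 than in the other libraries on library totals and 0.01 higher with TMM scaling. Each highest or lowest library given above for a single member was the same under TMM scaling.

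Sequence upstream of the start sites was read from RefSeq (GRCm38.p6) for 78 of the 105 members, 1 promoter per gene over 250 bases. The first listed promoter of each gene was taken, and some windows do not adjoin the gene start in GENCODE. That of the expressed member Cyp11a1 begins at 57997774, against a gene start of 58006411. Which start sites are used in marrow was not tested. On both strands 2 motifs were searched, TATAAA, the core of the TATA box, and GCGTG, the core of the site that Ahr and Arnt bind. The sequences of 2 members with reads near 0 and of 3 expressed members are shown, 5′ to 3′. They were picked to show the contrast and do not stand for their classes. Capitals mark TATAAA and GCGTG or their reverse complements.
Cyp1a1 (chr9:57697363-57697612, plus strand): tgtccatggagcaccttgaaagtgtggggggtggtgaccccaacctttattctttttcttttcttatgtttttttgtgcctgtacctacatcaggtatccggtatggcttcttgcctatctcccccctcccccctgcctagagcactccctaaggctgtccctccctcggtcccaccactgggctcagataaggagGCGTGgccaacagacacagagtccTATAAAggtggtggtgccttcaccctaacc
Cyp2e1 (chr7:140763569-140763818, plus strand): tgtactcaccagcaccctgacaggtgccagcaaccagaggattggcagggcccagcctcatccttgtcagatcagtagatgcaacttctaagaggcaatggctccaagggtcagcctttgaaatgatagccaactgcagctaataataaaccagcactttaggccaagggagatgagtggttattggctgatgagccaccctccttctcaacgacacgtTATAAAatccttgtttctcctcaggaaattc
Cyp1b1 (chr17:79715062-79715311, minus strand): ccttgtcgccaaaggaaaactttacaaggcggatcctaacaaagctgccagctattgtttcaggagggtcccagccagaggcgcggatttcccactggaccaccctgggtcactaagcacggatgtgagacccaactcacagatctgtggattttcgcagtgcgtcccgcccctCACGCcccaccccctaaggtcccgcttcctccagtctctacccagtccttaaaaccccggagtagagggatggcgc
Cyp51 (chr5:4104698-4104947, minus strand): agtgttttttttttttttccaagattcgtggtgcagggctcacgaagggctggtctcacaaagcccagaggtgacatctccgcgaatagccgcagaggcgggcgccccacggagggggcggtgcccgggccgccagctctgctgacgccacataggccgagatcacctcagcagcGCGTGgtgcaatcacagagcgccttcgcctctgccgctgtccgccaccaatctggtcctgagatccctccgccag
Cyp4f18 (chr8:72009627-72009876, minus strand): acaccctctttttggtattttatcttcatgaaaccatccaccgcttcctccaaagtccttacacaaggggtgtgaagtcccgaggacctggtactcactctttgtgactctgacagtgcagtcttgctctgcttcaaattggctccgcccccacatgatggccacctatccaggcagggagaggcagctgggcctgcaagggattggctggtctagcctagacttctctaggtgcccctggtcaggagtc

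Upstream TATAAA was common among the members at 0. It was absent from the 10 expressed members, where the low share over all expressed entries also leaves few matches. It was found in 0 of 10 expressed members, in 1 of 15 low members, which was Cyp2e1, and in 27 of 53 members with 0 reads (50.9%). Over all entries of the files with a promoter in the table the share was 11.9%, over expressed entries 6.40% and over entries with 0 reads 21.9%. On the coding strand, starting 20 to 40 bases before the start site, it was found in 0 of 10 expressed members, 1 of 15 low members and 10 of 53 members with 0 reads (18.9%). In the same window it was found in 1.28% of expressed entries and 5.04% of entries with 0 reads. In the sequences shown it starts 30 bases upstream in Cyp1a1 and 31 in Cyp2e1. In Cyp3a11, at 0 reads and not shown, it starts 234 bases upstream. GCGTG was found in 5 of 10 expressed members, 6 of 15 low members and 5 of 53 members with 0 reads, against 45.7% of expressed entries and 16.5% of entries with 0 reads. Cyp1a1, at 0 reads, and Cyp1b1, with reads in every library, each hold 1 match. CG dinucleotides had a median of 5.5 in expressed members, 4 in low members and 2 in members with 0 reads, against 16 over expressed entries and 2 over entries with 0 reads. Cyp51 held 20 and Cyp4f18, the highest member, 3. These counts describe the letters in the window, and paralogs of 1 cluster share sequence, so they are not independent of each other.

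**Figure D5:**
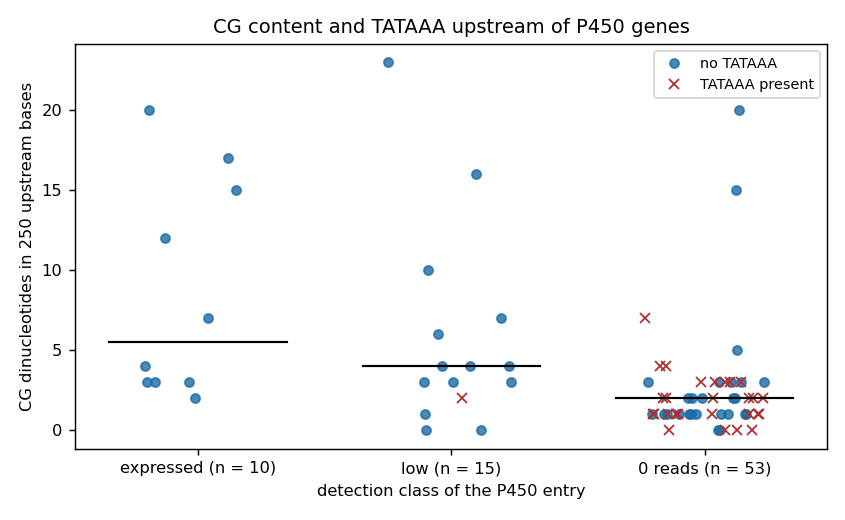
CG dinucleotides in the 250 bases upstream of 78 P450 genes, by detection class, with 1 point per gene and a bar at the median. Crosses mark genes whose window holds TATAAA: 0 of 10 expressed, 1 of 15 low and 27 of 53 at 0 reads.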

How the data were processed

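RNA of 3 vehicle bone marrow libraries was profiled with a Lexogen QuantSeq kit from 500 ng of total RNA, per the labels' protocols. The submitters' processing notes name Bowtie2, bedtools and mm10, without versions. Which annotation, strand setting and scaling were used is not stated in those notes. The authors deposited 1 log2 value per entry and library, which the values show to be log2(x + 1), x being reads per 1000000 of a library size they had scaled. Since x was a whole multiple of 1 read for 100% of values (tolerance 1e-06), reads were recovered, and CPM was computed on their sum. No count model with a term for spread between libraries was fitted. Exact binomial tests, which cover counting noise only, were run on entries with at least 30 recovered reads. Each library was tested against the others, the smallest p was multiplied by 3, and Benjamini-Hochberg adjustment at 0.05 followed. The planned test of the summed level was not used. Python 3.11.15 and scipy 1.17.1 ran the tests, which were tested on simulated data. Positions are from GENCODE M21 (GRCm38). Rn45s and globin entries stayed in the totals.

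Every member of at least 1 CPM was named with its libraries, every drug-metabolising member with its reads, and the others by role. The members and lists were chosen with earlier results of these data known. Alternatives covered scaling, read minimum, level minimum, test, pseudocount and leaving out each library.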

Additional observations from a re-analysis of the deposited data

How the results depend on the processing

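No paired analysis was possible because the labels give a single group. With Rn45s and globin entries left out of the totals, the summed P450 level was 186 CPM in place of 125 CPM, since the denominator is smaller. Without a level minimum 18 members in place of 11 counted as expressed, and at 0.5 and 2 CPM 15 and 9 did. In place of 2 of 11, members called as different between libraries were 4 of 18 from 10 reads upwards and 7 of 32 with no read minimum. A fold of at least 1.5 left 1 of 11. Over all entries, 7194 of 13332, 7347 of 16040 and 3341 of 11833 were called in these settings. The members added at low counts were Cyp2j6 and Cyp3a13, then Cyp2b10, Cyp2f2 and Cyp46a1. Leaving out each library in turn gave 0 to 3 members called and 10 to 17 partners and regulators called. The share of all entries called was not computed for those fits. Members expressed ranged from 10 to 12 and members at 0 from 75 to 77 in these fits, where fewer libraries leave fewer reads. Cyp4f18 was called under TMM scaling, the deposited scaling and the totals without Rn45s and globins, and lost its call without replicate 3 and under the minimum fold of 1.5. Depth limits the lowest members: 6 entries with 1 or 2 reads in all cannot be told from the 73 at 0, which makes 79 at or below 2 reads.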
